A study of Homo sapiens with 12 samples.

Results

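The checkpoint ligands are surface proteins with which a cell restrains the T cells, natural killer cells or phagocytes that touch it. Of the 60099 genes in the deposited gene table, 8 are described here: CD274, PDCD1LG2, CD276, VTCN1, PVR, NECTIN2, CD47 and TNFRSF14. They were taken by symbol, each symbol matched 1 row, and all 8 passed the filter on low counts that left 19944 genes for testing. VTCN1 passed with at most 19 counts in any sample.

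CD274 encodes PD-L1 and PDCD1LG2 encodes PD-L2, which both bind the receptor PD-1 and dampen activated T cells. Type I interferons such as IFNα act through the receptor pair IFNAR1 and IFNAR2, the kinases JAK1 and TYK2, and a transcription factor complex with IRF9 and STAT2 that binds interferon-stimulated response elements (ISRE) in the promoters of target genes. Squamous carcinomas of the head and neck are treated with antibodies that block PD-1, so the question addressed here was which of the inhibitory ligands respond to IFNα in such cells, at which dose and in which of the lines.

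The cells were Cal27 and HN30, established cell lines from head and neck squamous cell carcinoma (HNSCC), cultured for 24 h with 0, 20 or 200 ng/ml IFNα. Samples carry a letter and a replicate number. A and D had no IFNα, B and E had 20 ng/ml, and C and F had 200 ng/ml, with 2 samples for each of the 6 letters and 12 in all. The labels name no genetic change in any group. The letters form line sets A-C and D-F, which differed widely: Pearson's r of depth-scaled log2 counts over 13034 genes was 0.940 to 0.976 within a line set and 0.678 to 0.717 between them. The labels do not say which set is Cal27 and which is HN30, so each stands for a single line of unstated name, and nothing states that the 2 samples of a letter came from separate cultures. The p-values therefore measure only the spread between these samples.

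Total counts ran from 10517448 to 16056734, and each of the 4 controls (at least 12670755) was deeper than each of the 4 samples at 200 ng/ml (at most 11854183). The label of squamous cells was checked against markers: all 8 epithelial markers (KRT5, KRT14, KRT6A, KRT17, TP63, CDH1, EPCAM and DSG3) averaged above 1 TPM (transcript abundance scaled for length and depth to a fixed total). Their summed level was 886 to 2200 TPM without IFNα and 1092 to 2673 TPM at 200 ng/ml, where 4 of the 8 (KRT14, KRT6A, TP63 and DSG3) rose on average over the line sets. TP63 was at log2 0.93 in A-C and -0.10 in D-F (adjusted p of the difference = 0.0136), and KRT14 at 0.14 and 4.47 (0.11). Of the 7 leukocyte markers, CD3E and NKG7 were at 0 in every sample and PTPRC, the pan-leukocyte CD45, averaged 0.00635 TPM. The summed leukocyte markers nevertheless went from 5.34 to 13.7 TPM without IFNα to 19.6 to 40.6 TPM at 200 ng/ml, and the lysosomal gene CD68 was the 1 of the 3 tested markers that rose (log2 1.77, SE 0.14, adjusted p = 4.33e-05). CD68 was at log2 0.82 in A-C and 2.71 in D-F (adjusted p of the difference = 0.0126). Fibroblast markers summed to 8.56 to 15.3 TPM without IFNα and 5.46 to 15.2 TPM at 200 ng/ml, without a call among the 3 tested. Of the 4 endothelial markers, CDH5 averaged 9.40 TPM without a call and KDR was at 0 in every sample. Whether depth or these markers have a part in any result was not tested. In bulk RNA, a change in the number of cells that use a gene and a change in RNA per cell cannot be told apart.

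On the length-scaled TPM scale, the untreated ligands fell into a high and a low tier in both line sets. In letter A the order was CD47 (142 ± 16.1 TPM, SD, n = 2), PVR (60.6 ± 29.7), CD276 (59.4 ± 9.85), NECTIN2 (56.4 ± 15.9), CD274 (7.99 ± 2.40), TNFRSF14 (5.53 ± 0.966), PDCD1LG2 (2.09 ± 0.200) and VTCN1, which was at 0 in both samples. In letter D it was NECTIN2 (56.3 ± 1.92 TPM), CD276 (45.8 ± 4.67), PVR (40.6 ± 0.501), CD47 (35.6 ± 9.82), CD274 (10.95 ± 2.51), TNFRSF14 (5.68 ± 1.88), VTCN1 (0.590 ± 0.249) and PDCD1LG2 (0.211 ± 0.104). The 2 samples of PVR, CD276 and NECTIN2 overlapped in A, as did those of CD47 with both PVR and CD276 in D, so these neighbours cannot be ordered. CD274 and PDCD1LG2 were thus among the 4 least abundant of the 8 ligands before treatment, and CD274 stayed below CD47, CD276, NECTIN2 and PVR at 200 ng/ml in both line sets.

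Between the untreated line sets, 3 of the 8 ligands differed at an adjusted p of at most 0.05, beside 46.4% of all genes tested. PDCD1LG2 was lower in D than in A (log2 difference -3.38, SE 0.46, adjusted p = 0.000242), CD47 was also lower (-1.75, SE 0.09, adjusted p = 6.22e-07), and VTCN1 was higher (adjusted p = 0.00501). Because VTCN1 had 0 counts in both A samples, its difference is given only as a bound: D was at least 4.34-fold higher than the level of 3 counts per library. For CD274 the log2 difference was 0.18 (SE 0.24, adjusted p = 0.57). Without A1, the CD274 difference was 0.68 (adjusted p = 0.0215).

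With 200 ng/ml IFNα, averaged over both line sets, 3 of the 8 ligands rose (CD274, PDCD1LG2 and CD47), none fell, and 5 did not pass the test, while 4.98% of all genes tested rose. CD274 and PDCD1LG2 also passed a change of at least 2-fold, as did 1.58% of all genes in that direction. With 20 ng/ml, set against the same controls, the same 3 ligands passed, beside 2.33% of all genes, and CD274 and PDCD1LG2 did so at 2-fold or more, beside 0.963%. The median log2 fold change of the 8 ligands at 200 ng/ml was 0.49, or 0.29 with VTCN1 in A-C set to its lower bound, and that of all genes tested was -0.01. For CD274 and PDCD1LG2, all 4 samples at 200 ng/ml lay above both controls of their own line set, which was true of 8.23% of all genes and of none of the other 6 ligands. The share of all genes whose samples separate within a single line set was not counted. With 2 samples per letter, such separations named below only describe the samples.

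**Figure D1:**
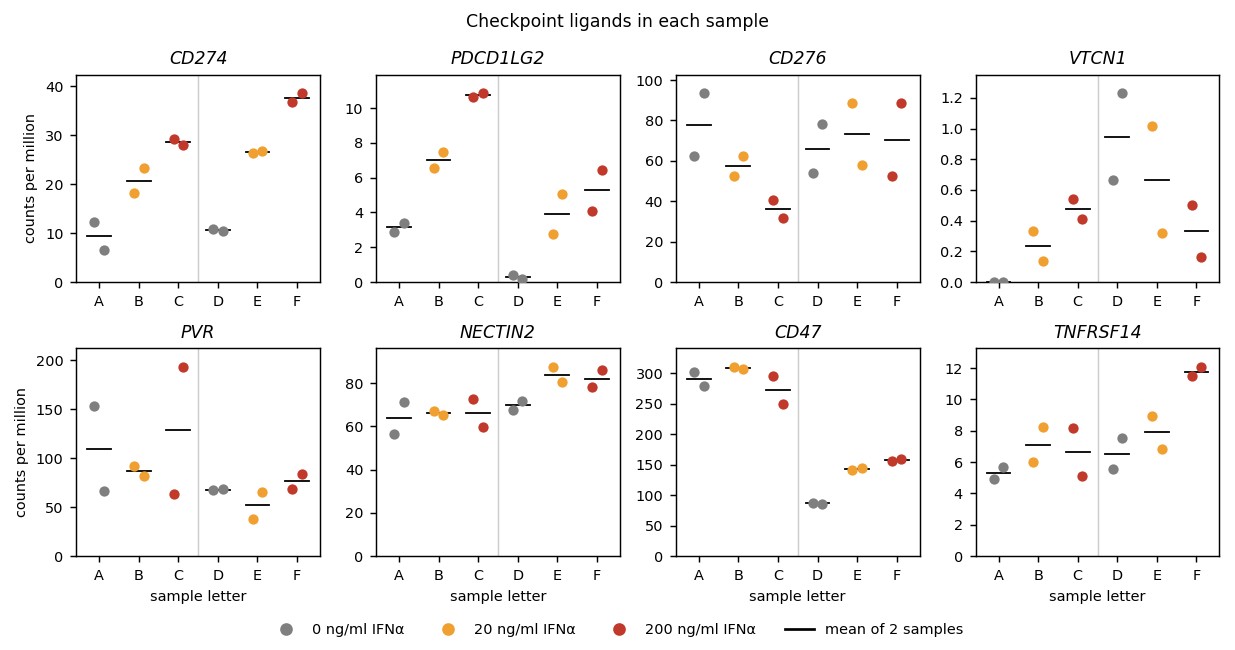
CPM (counts scaled to a fixed library size, vertical axis) of the 8 checkpoint ligands in each of the 12 samples, by sample letter; points are samples, coloured by IFNα dose, and black lines are means of 2 samples. CD274 and PDCD1LG2 are higher with IFNα in both line sets, and CD47 is higher with IFNα in D to F. In the other line set the CD47 samples of A and C overlap, while those of B lie just above A. The 2 PVR samples of A and of C lie far apart.

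CD274 (ENSG00000120217) spans chr9:5450503-5470566 on the plus strand of GRCh38. Its promoter is shown because CD274 was the ligand whose start region held interferon-type motifs. The 211 bases before the annotated gene start, chr9:5450292-5450502 on the plus strand, from the RefSeq promoter table for GRCh38.p14, read as follows, with motif matches in capitals.
CD274 upstream: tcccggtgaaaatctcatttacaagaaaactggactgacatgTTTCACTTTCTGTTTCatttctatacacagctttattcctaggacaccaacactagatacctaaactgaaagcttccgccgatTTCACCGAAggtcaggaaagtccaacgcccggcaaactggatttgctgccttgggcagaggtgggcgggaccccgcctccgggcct
The first capital block holds 2 overlapping matches, on the minus strand, to the ISRE-type motif GAAANNGAAA, at positions -208 to -199 and -202 to -193 from the RefSeq gene start. The second block holds 1 match to TTCNNNGAA, the palindromic form of the gamma-activated sequence (GAS) bound by STAT dimers, at positions -125 to -117. Both motifs were searched on both strands of windows of 300 bases, 250 before to 50 after the start, and 3.57% of 35116 such windows held the ISRE-type and 7.66% the GAS-type motif. The windows of the other ligands in the table (2 for CD276 and 1 each for VTCN1, PVR, NECTIN2, CD47 and TNFRSF14) held neither. PDCD1LG2 had no entry. A match is a description of the letters and not of a bound site.

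**Figure D2:**
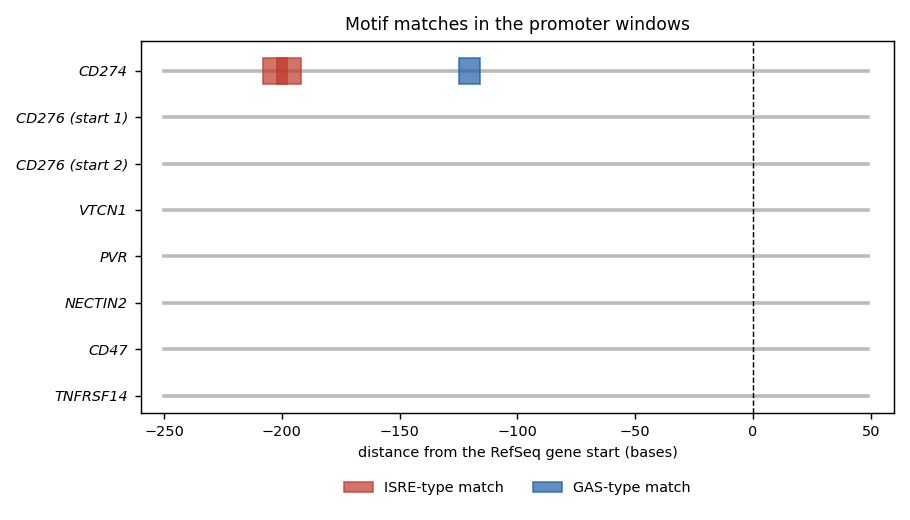
Positions of ISRE-type (red) and GAS-type (blue) motif matches in the promoter windows of 7 ligands, in bases from the RefSeq gene start (dashed line); each grey line is a window and CD276 has 2 starts. CD274 alone among these windows holds matches, 2 of the ISRE type that overlap and 1 of the GAS type.

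CD274 had 12.2 and 6.65 CPM (counts scaled to a fixed library size) in A1 and A2, 18.2 and 23.3 in B1 and B2, and 29.3 and 27.9 in C1 and C2. In the other line set it had 10.9 and 10.4 CPM in D1 and D2, 26.4 and 26.9 in E1 and E2, and 36.9 and 38.6 in F1 and F2. Within each line set the samples of the 3 doses did not overlap, and they ranked in the order of dose. The share of all genes with such an order in both line sets was not counted. At 200 ng/ml CD274 rose 3.28-fold (95% interval 2.51 to 4.27; log2 fold change 1.71, SE 0.17, adjusted p = 0.000239), and at 20 ng/ml 2.35-fold (1.80 to 3.06; log2 1.23, SE 0.17, adjusted p = 0.00299). The 200 ng/ml samples were 1.40-fold above the 20 ng/ml samples (1.08 to 1.80), which did not pass adjustment over all genes (adjusted p = 0.41). In this comparison of the doses edgeR called 0 of the 8 ligands and 0.135% of all genes, DESeq2 also called 0, and CD274 was the 1 ligand with an unadjusted p below 0.05 (0.0154). How many of all genes had an unadjusted p below 0.05 was not counted.

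The line sets were also taken apart. At 200 ng/ml CD274 rose 3.04-fold in A-C (log2 1.61, SE 0.24, adjusted p = 0.00619) and 3.53-fold in D-F (log2 1.82, SE 0.24, adjusted p = 0.00189). The A-C call was lost when the compared letters were fitted alone (log2 1.61, adjusted p = 0.0932). The test of the difference between line sets gave 0.21 (95% interval -0.54 to 0.97, adjusted p = 0.82), which did not pass, and the interval allows a difference of up to 1.95-fold. At 20 ng/ml CD274 rose in D-F (1.32, SE 0.24, adjusted p = 0.0164) and was at 1.14 in A-C (SE 0.24, adjusted p = 0.0658). Both of these lie near the threshold: the A-C value was 1.64 (adjusted p = 0.0055) without A1, and the D-F value lost its call without any 1 of its 4 samples, with log2 fold changes of 1.28 to 1.35 and adjusted p between 0.0819 and 0.117.

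CD274 RNA was divided among 5 annotated transcripts, of which 3 averaged at least 1 TPM. The coding transcript CD274-202 (3644 bases) had 4.65 and 2.14 TPM in A1 and A2, 11.1 and 9.69 in C1 and C2, 3.74 and 3.56 in D1 and D2, and 16.1 and 16.6 in F1 and F2. The 4 samples at 200 ng/ml thus lay above the 4 controls, by log2 1.81 (SE 0.29), at an adjusted p of 0.0502 over 75876 transcripts. CD274-203, a short transcript without a coding sequence (442 bases), averaged 6.99 TPM and differed by log2 1.29 (SE 0.40, adjusted p = 0.39), and CD274-204 (601 bases, also noncoding) averaged 2.27 TPM with 1.45 (SE 0.34, adjusted p = 0.20). CD274-202 made up 37.7% ± 8.64 (SD, n = 4) of CD274 TPM in controls and 47.9% ± 7.06 (n = 4) with 200 ng/ml. This shift of 10.1 percentage points had an exact permutation p of 0.222, two-sided with doses exchanged within line sets (0.778 adjusted over 6 ligands), in a design of 36 arrangements whose smallest p is 0.0556.

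The study's own qPCR primers show which of these RNAs a PCR for CD274 reads, so they are given here with the ChIP primer that touches the promoter above.
CD274-F1: ggtaagaccaccaccaccaa
CD274-R1: ttggaggatgtgccagaggt
PD-L1-R1: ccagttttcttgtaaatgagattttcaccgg
The forward and reverse CD274 primers both match CD274-201, CD274-202 and CD274-204 in GENCODE 29, with a product of 178 bases. CD274-203, the second most abundant CD274 transcript, matches the forward primer alone. The reverse ChIP primer lies on the minus strand at chr9:5450294-5450324, upstream of and not overlapping the motif matches.

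PDCD1LG2 (ENSG00000197646, chr9:5510570-5571254, plus strand) lies downstream of CD274 on the same strand and has a single annotated transcript. It had 2.90 and 3.42 CPM in A1 and A2, 6.56 and 7.49 in B1 and B2, and 10.6 and 10.8 in C1 and C2. In the other line set it had 0.398 and 0.194 CPM in D1 and D2, from 6 and 3 counts, then 2.79 and 5.09 in E1 and E2 and 4.08 and 6.47 in F1 and F2. Treated and untreated samples did not overlap in either line set, and the E and F samples overlapped each other. Averaged over line sets, PDCD1LG2 rose 7.66-fold at 200 ng/ml (95% interval 4.91 to 11.9; log2 2.94, adjusted p = 0.000207) and 5.36-fold at 20 ng/ml (3.43 to 8.39; log2 2.42, adjusted p = 0.00119). The 2 doses differed by 0.51 (95% interval -0.02 to 1.05, adjusted p = 0.55).

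In A-C PDCD1LG2 rose 3.38-fold at 200 ng/ml (95% interval 1.98 to 5.79; log2 1.76, SE 0.35, adjusted p = 0.0188), and at 20 ng/ml it was 2.22-fold (log2 1.15, SE 0.34, adjusted p = 0.19). The A-C call at 200 ng/ml was lost without A1 (log2 1.64, adjusted p = 0.0874), without A2 (1.88, adjusted p = 0.0935) and without C2 (1.74, adjusted p = 0.0727). In D-F it rose by log2 4.12 at 200 ng/ml (SE 0.45, adjusted p = 0.00057) and 3.70 at 20 ng/ml (SE 0.46, adjusted p = 0.00163). As the D samples held few counts, the ratio of summed counts is also given: 129 in F against 9 in D, or 18.0-fold after scaling for depth, with an exact 95% counting interval of 9.17 to 40.2, and 97 in E against 9, or 13.5-fold (6.82 to 30.4). These intervals cover counting error only. The responses of the line sets differed by log2 2.36 at 200 ng/ml (95% interval 1.07 to 3.65, adjusted p = 0.0752) and 2.55 at 20 ng/ml (1.25 to 3.85, adjusted p = 0.125), which do not pass in edgeR. In DESeq2 both did, with adjusted p of 0.0343 and 0.0407, whereas in limma the difference at 200 ng/ml was 0.64 on log2(TPM + 1) (adjusted p = 0.43) and 2.02 on log2(TPM + 0.1) (adjusted p = 0.13). The level reached at 200 ng/ml was still lower in F than in C, at 4.02 ± 1.31 against 7.06 ± 0.202 TPM (SD, n = 2).

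The balance of the PD-1 ligands therefore differed by line set. CD274 exceeded PDCD1LG2 2.67- to 4.97-fold in TPM in the 6 samples of A-C, at each dose. In D-F it exceeded PDCD1LG2 32.2- and 92.4-fold in the untreated samples, 11.0- and 6.15-fold at 20 ng/ml, and 10.6- and 7.12-fold at 200 ng/ml. The D values rest on 6 and 3 counts of PDCD1LG2. In every sample the TPM of CD274, summed over its coding and noncoding transcripts, was the higher of the pair. The leading coding transcript, CD274-202, had 2.14 TPM in A2, against 2.23 for the single PDCD1LG2 transcript. In every other sample CD274-202 was the higher, with 9.69 against 7.2 TPM in C2.

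CD47 (ENSG00000196776, chr3:108043298-108091025, minus strand) encodes the ligand of SIRPA on macrophages, through which a cell escapes phagocytosis. In A-C it had 303 and 279 CPM in A1 and A2, 309.9 and 306 in B1 and B2, and 296 and 250.1 in C1 and C2. In D-F it had 87.2 and 85.5 CPM in D1 and D2, 141 and 144 in E1 and E2, and 156 and 160 in F1 and F2. The F and E samples all lay above the D samples. In A-C both B samples lay just above both A samples, whereas C lay within or below the range of A. Averaged over line sets CD47 rose 1.31-fold at 200 ng/ml (95% interval 1.19 to 1.44; log2 0.39, SE 0.06, adjusted p = 0.0042) and 1.32-fold at 20 ng/ml (log2 0.40, SE 0.06, adjusted p = 0.00594). Taken apart, in D-F CD47 rose 1.83-fold at 200 ng/ml (1.60 to 2.098, adjusted p = 0.000323) and 1.65-fold at 20 ng/ml (1.44 to 1.89, adjusted p = 0.00151), and in A-C the ratio was 0.939 (0.821 to 1.07, adjusted p = 0.60) and 1.06 (0.927 to 1.21, adjusted p = 0.79).

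CD47 was the 1 ligand of 8 whose response at 200 ng/ml differed between line sets in edgeR, beside 1.88% of all genes, with a difference of log2 0.96 (SE 0.12, adjusted p = 0.00837). At 20 ng/ml the difference was 0.64 (SE 0.12, adjusted p = 0.0748), and it passed without C1 (adjusted p = 0.0311) or C2 (adjusted p = 0.0309). In that comparison edgeR called 0 ligands and 0.371% of all genes, 3 ligands had an unadjusted p below 0.05, and DESeq2 called 2 (PDCD1LG2 and CD47). For the unadjusted p and for DESeq2 the share of all genes was not counted. Even at 200 ng/ml, CD47 in F (85.2 ± 1.80 TPM, SD, n = 2) stayed below untreated A (142 ± 16.1).

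On TPM, CD47 kept its calls in D-F at 200 ng/ml and between the untreated line sets, and lost its other 4. In limma on log2(TPM + 1), the average change at 200 ng/ml was 0.59 (adjusted p = 0.0505) and the difference between line sets 1.35 (adjusted p = 0.0723), both larger in size than on counts. The deposited TPM of CD47 was divided among 5 transcripts, 4 of which averaged at least 1 TPM: CD47-202, a coding transcript of 1285 bases, was at 22.3 TPM in D2 and 41.5 in E1 but 0.07 in D1 and 0.15 in E2. In D1 and E2 the longer CD47-201 (5225 bases) had 16.0 and 30.8 TPM, against 5.09 in D2 and 15.9 in E1. The summed counts of D1 and D2, 1316 and 1321, did not show such a gap.

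**Figure D3:**
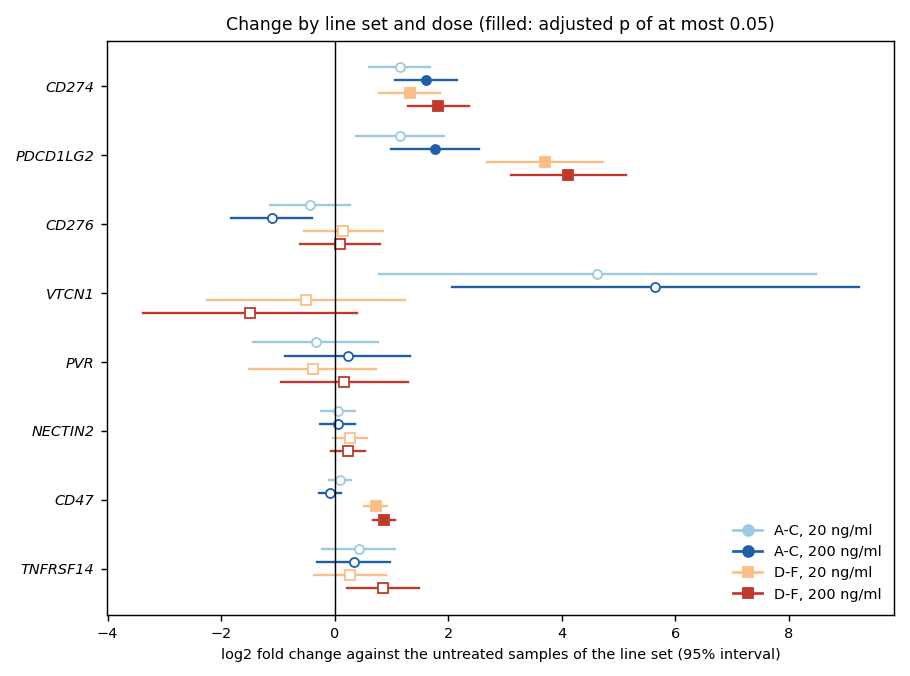
Log2 fold change (horizontal axis) of each ligand against the untreated samples of its own line set, with 95% intervals from edgeR, by line set and dose; filled symbols have an adjusted p of at most 0.05. The CD47 intervals of D-F lie to the right of 0 and apart from those of A-C, CD274 overlaps between line sets, and VTCN1 and PVR have the widest intervals; the VTCN1 values of A-C are fitted against 0 counts and are no bound.

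By line set, edgeR called CD274 and PDCD1LG2 at 200 ng/ml in A-C, beside 3.58% of all genes that rose there, and CD274, PDCD1LG2 and CD47 in D-F, beside 3.44%. At 20 ng/ml it called 0 ligands in A-C, where 0.913% of all genes rose, and the same 3 in D-F, where 2.15% rose. In A-C at 20 ng/ml 3 ligands had an unadjusted p below 0.05, and DESeq2 called 1, CD274 (log2 1.15, adjusted p = 0.00166). The share of all genes that met either criterion was not counted, so these counts have no background.

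CD276 and VTCN1 encode B7-H3 and B7-H4, members of the same B7 family as PD-L1 that inhibit T cells through receptors still under debate. CD276 (ENSG00000103855, chr15:73683966-73714518, plus strand) had 62.2 and 93.4 CPM in A1 and A2, 52.6 and 62.6 in B1 and B2, and 40.5 and 31.6 in C1 and C2. In D-F it had 53.9 and 78.2 CPM in D1 and D2, 88.6 and 58.1 in E1 and E2, and 52.6 and 88.5 in F1 and F2. Both C samples lay below both A samples, and the D, E and F samples overlapped. With 200 ng/ml the log2 fold change was -1.11 in A-C (SE 0.32, adjusted p = 0.0713) and 0.09 in D-F (SE 0.31, adjusted p = 0.94), with a difference of 1.20 between them (SE 0.45, adjusted p = 0.20). In DESeq2 the A-C value passed (-1.09, adjusted p = 0.00644). The average over line sets was -0.51 (SE 0.22, adjusted p = 0.20).

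The CD276 reads were spread over 10 transcripts of at least 1 TPM, and their levels differed widely between samples of a letter. CD276-201 had 0.13 TPM in A1 and 20.2 in A2, and CD276-202 had 5.97 in D1 and 28.3 in D2. The leading coding transcript, CD276-213, had 20.9 and 9.28 TPM in A1 and A2 but 0.84 and 0.69 in C1 and C2, and in D-F 11.96 and 2.57 in D1 and D2 against 23.7 and 11.7 in F1 and F2. Its average log2 fold change of -1.55 (SE 0.67, adjusted p = 0.56) did not pass.

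VTCN1 (ENSG00000134258, chr1:117143587-117210960, minus strand) was close to the detection limit in every sample. It had 0 counts in A1 and A2, 4 and 2 in B1 and B2, and 6 and 4 in C1 and C2, where a count of 0 allows up to 0.242 CPM in A1 and 0.194 in A2. It had 10 and 19 counts in D1 and D2, 12 and 4 in E1 and E2, and 6 and 2 in F1 and F2. The A-C samples with IFNα thus lay above their controls and the F samples below theirs, in both cases by a few reads. Against the level of 3 counts per library, C was at least 2.18-fold higher than A. No contrast with IFNα passed for VTCN1 (adjusted p = 0.0703 in A-C and 0.39 in D-F at 200 ng/ml, and 0.0902 for their difference).

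PVR and NECTIN2 encode CD155 and CD112, nectin-type adhesion proteins that inhibit T cells and natural killer cells through TIGIT and activate them through CD226. PVR (ENSG00000073008, chr19:44643798-44663583, plus strand) had 153 and 66.3 CPM in A1 and A2, 91.6 and 81.6 in B1 and B2, and 63.8 and 193 in C1 and C2. In D-F it had 67.9 and 68.1 CPM in D1 and D2, 38.4 and 65.5 in E1 and E2, and 68.8 and 84.2 in F1 and F2. The C samples lay on either side of the A samples, while both F samples lay above and both E samples below the D samples. With 200 ng/ml the log2 fold change was 0.20 (SE 0.35, 95% interval -0.59 to 0.98, adjusted p = 0.81) and at 20 ng/ml -0.36 (SE 0.35, adjusted p = 0.69), so changes of up to 1.98-fold at 200 ng/ml lie within the interval.

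Its transcripts also differed between the samples of a letter. PVR-205 had 34.5 TPM in A1 and 1.96 in A2, and 3.18 in C1 and 40.1 in C2. PVR-202 had 17.7 TPM in C2 and 1.58 in C1. The shorter PVR-204 (1344 bases) ran from 6.42 to 11.1 TPM over all 12 samples, and PVR-203 from 7.11 to 36.9. PVR also overlaps AC243964.2, an antisense gene, over its whole length and CEACAM19 on the same strand over 1306 bases, and though the library kit keeps strand, whether the counting used it is not stated. Reads of PVR and its partners may therefore not be told apart.

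NECTIN2 (ENSG00000130202, chr19:44846175-44889228, plus strand) had 56.4 and 71.3 CPM in A1 and A2, 67.1 and 65.4 in B1 and B2, and 72.6 and 59.6 in C1 and C2. In D-F it had 67.5 and 71.8 CPM in D1 and D2, 87.3 and 80.6 in E1 and E2, and 78.2 and 85.9 in F1 and F2. A and C overlapped, and the E and F samples all lay above the D samples. The average log2 fold change was 0.14 at 200 ng/ml (SE 0.09, 95% interval -0.07 to 0.36, adjusted p = 0.41) and 0.16 at 20 ng/ml (SE 0.09, adjusted p = 0.44). The interval of this average at 200 ng/ml leaves room for a change of at most 1.28-fold. In D-F alone the log2 fold change was 0.24 at 200 ng/ml (SE 0.13, adjusted p = 0.40), with an interval that reaches 1.45-fold. An antisense gene, AC011481.2, overlaps its last 7202 bases.

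TNFRSF14 (ENSG00000157873, chr1:2555639-2565382, plus strand) encodes HVEM, which inhibits lymphocytes through BTLA and CD160 and is itself a receptor for the cytokine LIGHT. It had 4.92 and 5.68 CPM in A1 and A2, 5.97 and 8.26 in B1 and B2, and 8.20 and 5.11 in C1 and C2. In D-F it had 5.57 and 7.504 CPM in D1 and D2, 8.96 and 6.84 in E1 and E2, and 11.5 and 12.04 in F1 and F2. Both F samples lay above both D samples, while C overlapped A. The log2 fold change was 0.59 at 200 ng/ml on average (SE 0.20, adjusted p = 0.11), 0.85 in D-F (SE 0.28, adjusted p = 0.13) and 0.33 in A-C (SE 0.29, adjusted p = 0.56). The difference between line sets was 0.52 (SE 0.40, adjusted p = 0.55). TNFRSF14-AS1 overlaps the first 1393 bases on the opposite strand, and the leading TNFRSF14 transcript by TPM, TNFRSF14-216, is annotated as a retained intron.

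Over the transcripts of the 8 ligands, 29 averaged at least 1 TPM and 27 of these were tested. PDCD1LG2-201 was the 1 that passed, by log2 2.88 at 200 ng/ml (SE 0.37, adjusted p = 0.0207), beside 0.597% of 75876 transcripts. With DESeq2 3 passed, and with a replicate block 0 did. The share of all transcripts called in those other fits was not counted. The share of the leading transcript was compared for 6 ligands, with exact permutation p from 0.222 to 0.944 and adjusted p from 0.778 to 0.944. With 36 arrangements the smallest p is 0.0556, so no ligand could have passed.

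**Figure D4:**
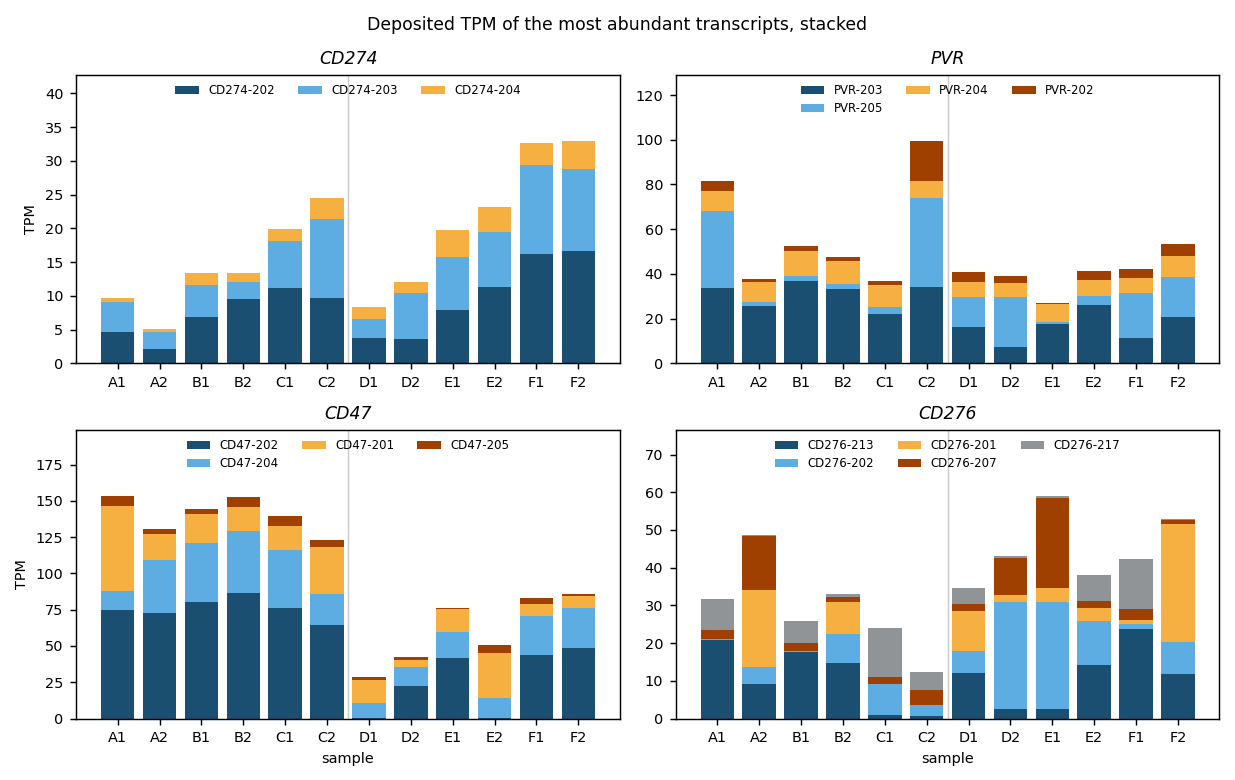
Deposited TPM of up to 5 of the most abundant transcripts of CD274, PVR, CD47 and CD276, stacked for each of the 12 samples (vertical axis in TPM, grey line between line sets). The summed CD274 bars reach higher at 200 ng/ml than those of the controls in both line sets, PVR-205 is high in A1 and C2 and low in A2 and C1, and CD47-202 is nearly absent from D1 and E2.

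Other genes of the same pathways were read from lists chosen with earlier results of these data known, as was the list of ligands. Of all 19944 genes tested, 993 (4.98%) rose at 200 ng/ml and 912 fell, which is the background of each list count below. In interferon signalling towards CD274, 6 of 11 tested genes rose at 200 ng/ml and none fell, with a median log2 fold change of 0.40. IRF9 (2.69, SE 0.13, adjusted p = 1.03e-06) and STAT2 (1.80, SE 0.08, adjusted p = 6.8e-07), which act in the ISRE-binding complex, were among the 6. IRF2, which competes with IRF1 at the same sites, rose by 0.72 (SE 0.11, adjusted p = 0.00291) and the kinase JAK2 by 0.50 (SE 0.10, adjusted p = 0.0123). By line set, IRF2 passed in A-C alone (adjusted p = 0.00908) and JAK2 in D-F alone (adjusted p = 0.00915). The receptor chains IFNAR1 (-0.11, adjusted p = 0.38) and IFNAR2 (0.10, adjusted p = 0.82) did not pass.

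Among 10 other inhibitory ligands, 7 were tested, 4 rose, beside 4.98% of all genes tested, and none fell, with a median of 0.45. LGALS9, which encodes galectin-9, rose by log2 4.14 (SE 0.17, adjusted p = 2.26e-07), CEACAM1 by 1.81 (SE 0.17, adjusted p = 0.000183), HLA-E, the ligand of the inhibitory receptor NKG2A, by 1.06 (SE 0.07, adjusted p = 1.54e-05) and the complement regulator CD55 by 0.45 (SE 0.12, adjusted p = 0.0393). CD274 with 1.71 and PDCD1LG2 with 2.94 thus lay within the range of these 4. HLA-E was at 0.68 in A-C and 1.44 in D-F, a difference that passed in edgeR (adjusted p = 0.0358). CD55 passed in A-C (0.77, adjusted p = 0.0257) but not in D-F (0.14, adjusted p = 0.74), and the difference did not pass (adjusted p = 0.20). In the rest of the B7 and butyrophilin family, 8 of 11 genes were tested, with a median of 0.39. On average 2 rose, beside 4.98% of all genes tested: BTN3A3 (1.45, SE 0.20, adjusted p = 0.00186) and BTN2A2 (0.70, SE 0.14, adjusted p = 0.0136). Both passed in D-F (adjusted p = 0.00266 and 0.0468) and neither in A-C (0.0946 and 0.11). ICOSLG, a costimulatory ligand, fell on average (-0.67, SE 0.13, adjusted p = 0.0138). ICOSLG was at -1.53 in A-C (adjusted p = 0.0027) and 0.20 in D-F (adjusted p = 0.65), and this difference passed (1.73, adjusted p = 0.0177). None of the 4 tested of 5 other nectins passed, with a median of 0.02, and NECTIN1, the most abundant, was at -0.12 (adjusted p = 0.40) and NECTIN4 at 0.32 (adjusted p = 0.17).

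Of a list of costimulatory TNF ligands, CD40 and TNFSF10, 7 of 8 were tested, with a median of -0.08. On average 1 rose, beside 4.98% of all genes tested. It was TNFSF10 (2.91, SE 0.26, adjusted p = 0.000108), which encodes TRAIL, a death-receptor ligand and not a costimulatory one. TNFSF15, averaging 1.83 TPM, fell in A-C (-1.12, adjusted p = 0.0166) and was at 0.96 in D-F (adjusted p = 0.0786). Its difference between line sets passed (2.08, adjusted p = 0.0227). Receptors through which lymphocytes and phagocytes are restrained or activated were largely absent: 3 of 10 were tested, none passed, the median was -1.51, and CTLA4, TIGIT and BTLA were at 0 in every sample. SIRPA, the receptor of CD47, averaged 6.21 TPM and was at -0.10 (adjusted p = 0.79), while LAG3, the next most abundant, averaged 0.548 TPM and was at -1.51 (adjusted p = 0.26).

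Other lists held genes whose products act on PD-L1 or CD47 after transcription. Of 10 regulators of PD-L1 protein and RNA, none rose and CMTM6, which keeps PD-L1 at the cell surface, fell on average (-0.33, SE 0.05, adjusted p = 0.00455), with a median of -0.01. CMTM6 passed in D-F (-0.48, adjusted p = 0.0047) but not in A-C (-0.19, adjusted p = 0.19), and the difference did not pass (adjusted p = 0.19). The most abundant regulator after CMTM6, B3GNT3, was at 0.03 (adjusted p = 0.94). QPCTL and QPCT, which modify CD47 so that SIRPA binds it, were at -0.25 each (adjusted p = 0.51 and 0.58).

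Around CD274 on chromosome 9p24.1, 8 of 11 neighbouring genes were tested and 3 rose on average, beside 4.98% of all genes tested. They were JAK2 by the value above, UHRF2 (0.36, SE 0.07, adjusted p = 0.015) and RIC1 (0.32, SE 0.07, adjusted p = 0.0203), and the median of the list was 0.34. JAK2 passed in D-F (0.80, adjusted p = 0.00915) but not in A-C (0.20, adjusted p = 0.44). UHRF2 passed in A-C (0.44, adjusted p = 0.0376) but not in D-F (0.28, adjusted p = 0.18). RIC1 passed in neither, at 0.25 in A-C (adjusted p = 0.17) and 0.38 in D-F (adjusted p = 0.0542). RLN2 (1.75, adjusted p = 0.33) and RLN1 (1.69, adjusted p = 0.46), each averaging under 1 TPM, did not pass.

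**Figure D5:**
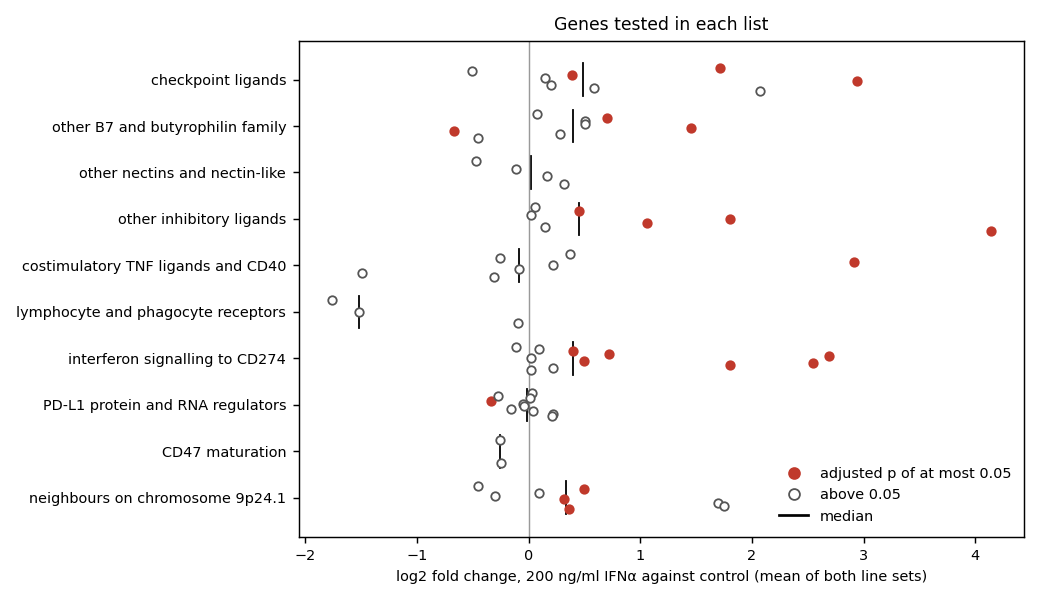
Log2 fold change at 200 ng/ml against control, averaged over line sets (horizontal axis), of each tested gene in the lists (rows); filled points have an adjusted p of at most 0.05 and black lines are medians. The 3 filled checkpoint ligands are CD47, CD274 and PDCD1LG2, and the point farthest right is LGALS9 at 4.14.

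Among the genes most like CD274 over the 12 samples, by Pearson's r of log2 CPM after the mean of each line set was subtracted, were BTC (0.982), GPBP1 (0.981), POLQ (0.978) and ISG20 (0.974). Those most like PDCD1LG2 were RASGRP3 (0.987), N4BP1 (0.985), ANKFY1 (0.981), EHD4 (0.977) and GFOD1 (0.976). CD274 and PDCD1LG2 correlated with each other at 0.888. These values describe 12 samples that share dose, library and depth, and carry no p.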

How the data were processed

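RNA of 12 samples was sequenced by the authors after removal of ribosomal RNA, with a strand-specific kit. Per the labels' processing notes, the tools were Trimmomatic 0.36, HISAT2 2.1.0 and StringTie 1.3.3b, with the genome build GRCh38.p10; their settings are not given in the sources used here. The authors deposited an estimated count per gene and transcript, as integers without depth scaling, and TPM, which they had scaled for length and depth. Their FPKM values were not used. An estimated count or TPM of a transcript depends on how shared reads were divided, which also moves the gene TPM.

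The members and lists were chosen with earlier results of these data known. Samples were grouped by letter from their titles, and columns were matched to samples by name. Estimated counts of genes (and separately of transcripts) were fitted with edgeR 4.0.16 in R 4.3.3 (TMM, filterByExpr, quasi-likelihood test, Benjamini-Hochberg adjustment over all features tested) in 1 model of the 6 letters. A gene passed at an adjusted p of at most 0.05. SEs were derived from each log2 fold change and its F statistic. CPM used the totals of the genes tested, scaled by TMM factors of 0.931 (C2) to 1.06 (E1). Before filter and scaling the totals were 10517448 to 16056734 counts. A group at 0 was set to a floor of 3 counts per library. Exact permutation tests were two-sided with doses exchanged within line sets. All 8 ligands were named; of each list, up to 5 genes that passed by size of change, or the 2 most abundant where fewer than 2 passed; likeness took the 5 highest r, with a prior count of 2 in log2 CPM. Some genes that these rules give are not reported here. A gene that neither rule gives (IFNAR1, IFNAR2, RLN1, RLN2, TNFSF15, CTLA4, TIGIT and BTLA) was named after its values were seen.

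Alternatives were DESeq2 1.42.0, RLE size factors, no filter on low counts, a replicate block, the compared letters alone, other thresholds, limma 3.58.1 on log2(TPM + 1) and log2(TPM + 0.1), and leaving out each sample. Annotation came from GENCODE 29 and promoters from RefSeq on GRCh38.p14, with Python 3.11.15. The scripts were tested on simulated data with changes placed only in features above a minimum level, so counts as low as those of VTCN1 were not covered. Only 2 samples per letter limit the precision.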

Additional observations from a re-analysis of the deposited data

Results flagged for a closer look

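The response of CD47 to 200 ng/ml IFNα stood out because it differed between the line sets in a test of the difference itself. The log2 fold change was 0.96 higher in D-F than in A-C (SE 0.12, adjusted p = 0.00837 in edgeR's quasi-likelihood test), with a log2 fold change of 0.87 in D-F and -0.09 in A-C. The 2 F samples lay above the 2 D samples, and C1 lay within the range of A1 and A2 while C2 lay below it.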

How the results depend on the processing

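The 3 ligands that rose at 200 and at 20 ng/ml on average were called again under DESeq2, RLE size factors, no filter, the replicate block, the compared letters alone and each left-out sample; limma on log2(TPM + 1) or log2(TPM + 0.1) called CD274 and PDCD1LG2 but not CD47. For CD47 the value at 200 ng/ml was then 0.59 or 0.60, at 20 ng/ml 0.45 or 0.46, and the difference between line sets 1.35 or 1.38. For PDCD1LG2 log2(TPM + 1), a scale that shrinks the change of low values, gave 1.71 at 200 ng/ml and 1.28 at 20 ng/ml, with the calls kept. The count of ligands called moved as follows, and the share of all genes was not counted at an unadjusted p, in other tools or without a sample. At 200 ng/ml in A-C it was 2, against 4 at 2-fold with an unadjusted p and 1 with the compared letters alone (CD274 lost, adjusted p = 0.0932), and 1 to 2 over left-out samples. At 20 ng/ml in A-C it was 0, against 3 at 2-fold with an unadjusted p, 1 with DESeq2, and 0 to 1 over left-out samples. For the difference between line sets at 200 ng/ml it was 1, against 0 at an adjusted p with 2-fold, 3 at 2-fold with an unadjusted p, 2 with DESeq2 (PDCD1LG2 at 2.37) and 0 in both limma fits. At 20 ng/ml it was 0, against 2 at 2-fold with an unadjusted p, 2 with DESeq2, and 0 to 1 over left-out samples. Transcripts passing were 1, against 3 with DESeq2 and 0 with the replicate block, where the share of all transcripts was not counted either. The comparisons of leading-transcript shares stayed above 0.05 in each setting run, which the design fixes in advance. With 36 arrangements the smallest permutation p is 0.0556, and leaving out a sample gives fewer arrangements, so this is no check. Same-numbered samples deviated from their letter means with correlations of -0.03 to 0.05 over all genes tested. That shows no strong effect shared by number, but it cannot exclude that same-numbered samples were handled together. The replicate block took the CD274 call at 20 ng/ml in D-F (adjusted p = 0.0533), left 3 ligands called at 200 ng/ml, and changed no other call of a gene. Depth limits VTCN1 throughout and PDCD1LG2 in untreated D, and the intervals of PVR and CD276 are wide. The cause of these shifts was not tested.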
